A study of Mus musculus with 33 samples.

Results

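In mouse embryonic stem cells (ESCs), 9 interferon-stimulated and nucleic acid sensing genes were followed across the loss of the HP1 proteins and of Setdb1: Ifit1, Ifit3, Isg15, Irf7, Ifih1, Zbp1, Bst2, Oasl2 and Usp18. They were picked by gene symbol and are 9 of the 55487 genes that the tables list. Cells that lost Setdb1 had more Irf7, Ifih1, Oasl2 and Usp18 RNA than their Setdb1 F/F parent ESCs and less Zbp1 RNA. Each of these genes had enough counts for a test only through the group in which it was higher. Their number is therefore not support in itself. Bst2, with enough counts in both groups, rose by a log2 fold change of 0.38, under the threshold of 1. Cells in which all 3 Hp1 paralogs, Hp1α, Hp1β and Hp1γ, were deleted had less Zbp1, Oasl2 and Bst2 RNA than wild-type ESCs. Of these, Zbp1 had enough counts for a test only through the wild-type ESCs. Zbp1 thus fell in both, to 1 count over 3 libraries in the triple mutant and 5 counts after Setdb1 loss, whereas Oasl2 moved in opposite directions. Bst2 was the only member with over 100 TPM in wild-type ESCs, and in set A, 1 of the 2 wild-type sets, 6 members had a mean under 1 TPM.

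Cells sense foreign or misplaced nucleic acid with cytosolic receptors such as MDA5 (the product of Ifih1) and cGAS, whose adaptors switch on kinases and interferon regulatory factors and so the interferon genes. Secreted interferon binds receptors that act through the JAK kinases and transcription factors that recognise a DNA element, the ISRE, before interferon-stimulated genes. ESCs are known for a weak interferon system compared with differentiated cells, and transcripts of derepressed retroviral repeats are a known source of ligand for these receptors.

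The study asked how the readers of histone H3 lysine 9 methylation (the HP1 proteins) and one of its writers, the methyltransferase SETDB1, maintain ESC identity. RNA-seq was made from C57BL/6 ESCs in 11 conditions with 3 libraries each. The single mutants of Hp1α, Hp1β or Hp1γ and the double mutants Hp1α/β, Hp1α/γ and Hp1β/γ are lines with constitutive CRISPR knockouts (Δ/Δ). The triple mutant (Hp1α/β/γ Δ/Δ) was obtained by Cre transfection of Hp1α/β double mutant ESCs whose Hp1γ alleles carry loxP sites. The Setdb1 mutant (Setdb1 Δ/Δ) was obtained by Cre deletion in Setdb1 F/F ESCs, in which Setdb1 carries such sites. Set A and set B name the 2 sets of 3 libraries that the labels both call wild type. Set A stands in the tables of the single mutants, the Hp1α/β mutant and the triple mutant, and set B in those of the Hp1α/γ and Hp1β/γ mutants. The labels do not tell how the wild-type sets differ. The paper describes vector-transfected parent cells as the control of the triple mutant, which the labels do not list. It took the RNA of the triple mutant at a set time after Cre transfection, and describes apoptosis and cell-cycle arrest in these cells. Whether the controls of the triple mutant and of the Setdb1 mutant received a vector is not given in the labels. In these 2 mutants, delivery of Cre therefore cannot be told apart from loss of the genes. ESCs were grown on inactivated mouse embryonic fibroblasts, and the feeders were removed by brief plating.

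Total counts per library ran from 17330936 to 25743149, so that 3 counts corresponded to between 0.116 and 0.177 CPM (counts scaled to library size) in a library after scaling. Replicates correlated at r of at least 0.9899 across genes, except in Hp1α/γ mutant ESCs, where replicate 2 stood apart and the lowest r was 0.9576. The targeted paralogs and Setdb1 had between 0.101 and 0.558 times the counts of the controls in every mutant, with no overlap between libraries. All 8 ESC markers listed for the check of the label were counted in all conditions. Their sum was 1436 to 1479 CPM in triple mutant cells against 3639 to 3670 CPM in set A, where 6 of 8 were called lower. Of 12 feeder fibroblast markers, Fap had no count in any library, and the sum of the list was at most 61.9 CPM.

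A gene was called in a comparison at a Benjamini-Hochberg adjusted p under 0.05 from edgeR's quasi-likelihood test and an absolute log2 fold change over 1, and it was tested only if enough libraries held about 10 counts. SE stands for the standard error of a log2 fold change. With 3 libraries against 3, an exact permutation test of a single gene cannot give p under 0.1, so tests rest on the fit across all genes. A fold change of this kind measures RNA in the bulk culture, in which fewer cells of a type and less RNA per cell cannot be told apart.

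Compared per transcript length, the members differed widely in level. In set A, Bst2 had 155.6 ± 2.52 TPM (SD, n = 3), more than 94.2% of the genes with at least 1 TPM. Oasl2 had 4.69 ± 1.04 TPM (SD, n = 3) and Zbp1 4.57 ± 1.42 TPM (SD, n = 3), more than 26.2% and 25.7% of those genes. Isg15 followed with 0.85 ± 0.362 TPM (SD, n = 3), and Ifit1, Irf7 and Ifih1 had means of 0.27, 0.18 and 0.123 TPM. Ifit3 and Usp18 each had a mean of 0.0133 TPM, from 1 count in the 3 libraries. In raw counts, Bst2 had at least 478 in all 33 libraries, and Zbp1 and Oasl2 reached 10 counts in 27 and 30 of them. Ifih1, Irf7 and Isg15 reached 10 counts in 19, 13 and 10 libraries. Ifit1 did so in 6, Usp18 in 4 and Ifit3 in none. The TPM of Usp18 was not used beyond these wild-type levels, because 1 Hp1β mutant library lists 23.96 TPM for 5 counts.

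All 9 are protein-coding genes in GENCODE M21 on GRCm38. Ifit1 (chr19:34640871-34650009) and Ifit3 (chr19:34583531-34588731) lie in the same cluster on the plus strand. Ifih1 (chr2:62595798-62646255) and Zbp1 (chr2:173206612-173218923) share a chromosome and lie on its minus strand, as do Isg15 (chr4:156199424-156200818), Irf7 (chr7:141262706-141266481) and Bst2 (chr8:71534255-71537456) on theirs. Oasl2 (chr5:114896936-114912234) and Usp18 (chr6:121245906-121270917) lie on the plus strand. For 2 members, a gene of the opposite strand reaches an exon, Phrf1 for Irf7 and the lincRNA gene Gm44148 for Usp18. The sources used here do not state whether counting used strand, so reads of these pairs cannot be told apart.

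RefSeq promoter windows (GRCm38.p6, 250 bases before to 50 after the start) were given for 7 members, and not for Zbp1 and Usp18. The core letters of the ISRE, GAAANNGAAA on either strand and counted with overlaps, were found in 5 of these 7 windows, against 3.44% of all 32851 windows. Among the 121 pathway genes outside the members that have a window, 38.0% held them, against 3.99% of all 27025 genes. The stretches of 4 members are shown because they hold the letters before the start, which Irf7 and Oasl2 lack in these windows and Ifih1 has after the start. They are written 5′ to 3′ on the strand of the gene, with matches in capitals:
Ifit1 (chr19:34640770-34640828): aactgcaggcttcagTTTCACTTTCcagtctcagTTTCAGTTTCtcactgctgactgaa
Ifit3 (chr19:34583358-34583431): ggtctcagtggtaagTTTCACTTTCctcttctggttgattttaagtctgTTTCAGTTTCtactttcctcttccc
Isg15 (chr4:156200860-156200911): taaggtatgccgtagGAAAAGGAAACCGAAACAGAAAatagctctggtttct
Bst2 (chr8:71537572-71537617): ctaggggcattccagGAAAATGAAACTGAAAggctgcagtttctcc

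Ifit1 and Ifit3 each hold a pair of separate matches, which begin 104 and 85 bases before the start in Ifit1 and 156 and 122 bases before it in Ifit3. In Isg15 3 overlapping matches begin 78, 72 and 66 bases before the start, and in Bst2 an overlapping pair begins 130 and 124 bases before it. The letters of the GAS element, TTCNNNGAA, another interferon-responsive element, were found in 1 of the 7 windows, that of Bst2, and in 8.3% of all windows. Over the 11 condition means of log2 CPM, the pairwise correlations among the 4 genes shown ran from r = 0.172 (Ifit1 and Ifit3) to r = 0.759 (Ifit1 and Bst2).

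**Figure D1:**
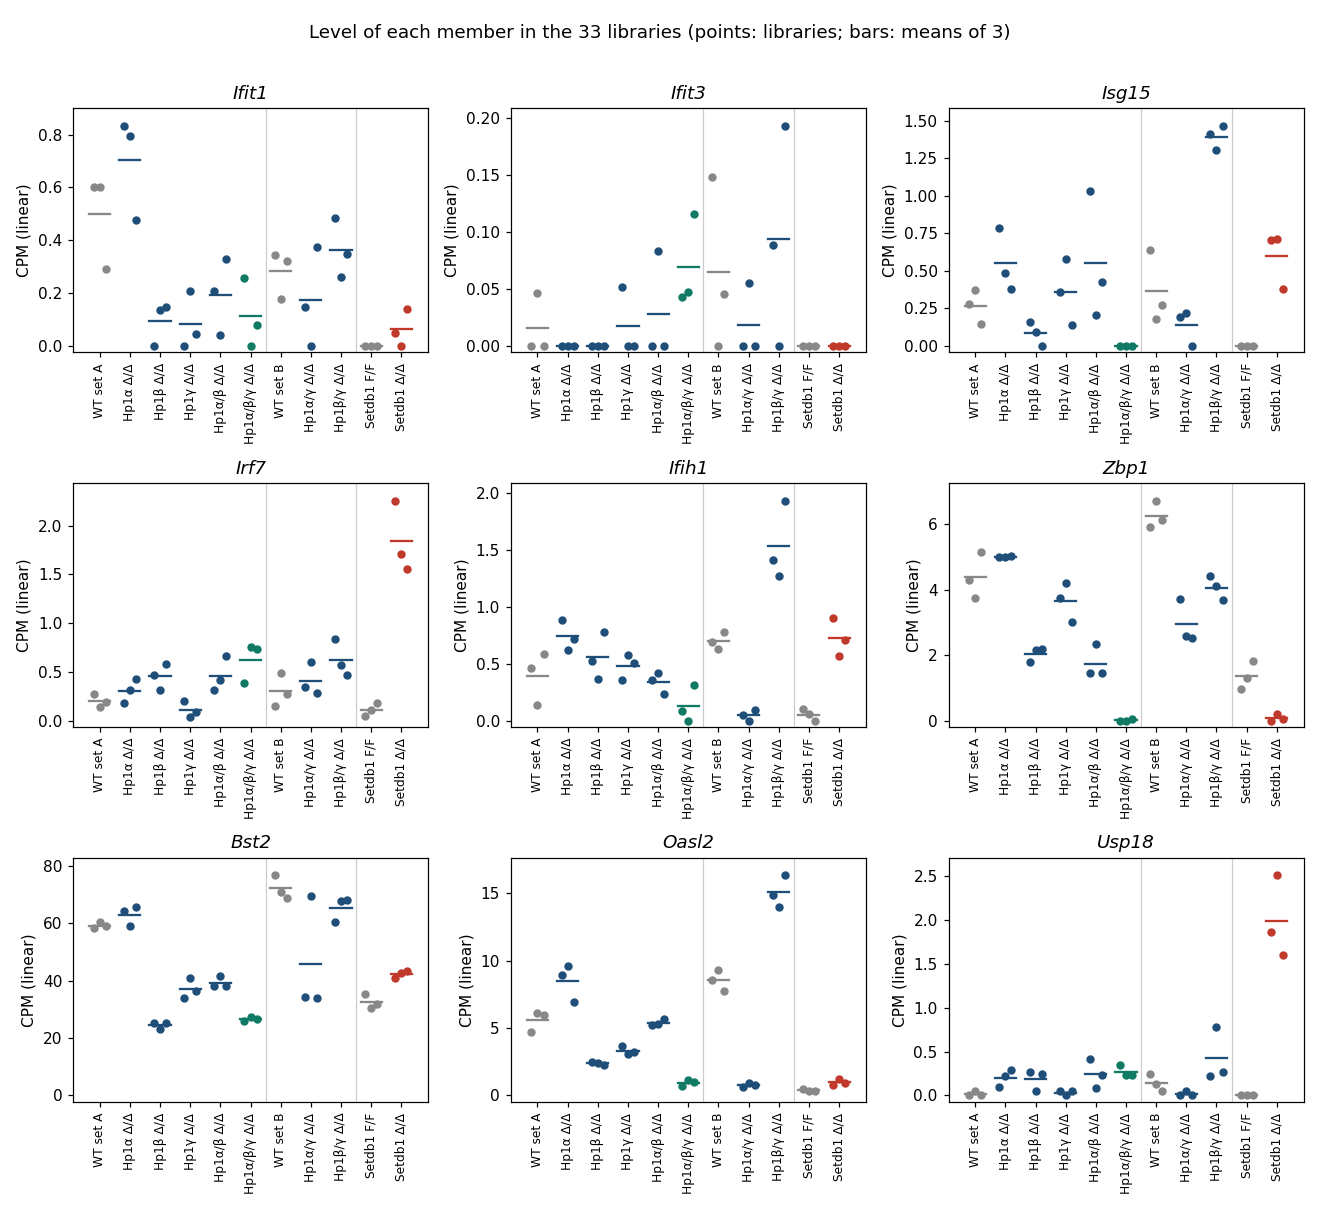
Level of each member in CPM (linear axis, a scale for each gene) in the 33 libraries, with points for libraries and bars for the mean of 3, where grey marks the controls and vertical lines separate the sets that share a control. Setdb1 mutant cells stand apart for Irf7 and Usp18, Hp1β/γ mutant ESCs for Isg15, Ifih1 and Oasl2, and Zbp1 is near 0 in triple mutant and Setdb1 mutant cells.

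Ifih1 encodes MDA5, which binds long double-stranded RNA. It had 10, 3 and 12 counts in set A, 14, 14 and 17 in set B, and 32, 29 and 50 in Hp1β/γ mutant ESCs. Every Hp1β/γ mutant library lay above all libraries of the other conditions in CPM, and Ifih1 was up-regulated there with a log2 fold change of 1.14 (SE 0.293, adjusted p = 0.00432). Without Hp1β/γ mutant replicate 3 the log2 fold change was 0.94 (adjusted p = 0.0346) and the call was lost. In Hp1α/γ mutant ESCs it had 1, 0 and 2 counts, which lay below set B without overlap, a log2 fold change of -3.69 (SE 0.6, adjusted p = 0.0024). Setdb1 F/F ESCs had 2, 1 and 0 counts and Setdb1 mutant cells 18, 12 and 15. Ifih1 was up-regulated in the latter (log2 fold change 3.59, SE 0.624, adjusted p = 5.05e-05). The mean reached, 0.727 CPM, overlapped with that of set B, 0.699 CPM, although these values come from separately deposited tables. From the sums of 45 and 3 counts, the ratio was 13.2 with an exact 95% interval of 4.23 to 66.3, which covers counting error only. The triple mutant cells had 2, 0 and 8 counts, which overlap with set A, and the gene was not tested there.

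Zbp1 encodes a sensor of Z-form nucleic acid that can start necroptosis through RIPK3 and MLKL. It had 93, 81 and 106 counts in set A, 120, 150 and 134 in set B and 19, 23 and 31 in Setdb1 F/F ESCs. The triple mutant cells had 0, 0 and 1 count, and Setdb1 mutant cells 0, 4 and 1. Both lay below their controls without overlap. Zbp1 was down-regulated in triple mutant cells with a log2 fold change of -7.76 against set A (SE 0.536, adjusted p = 9.07e-11) and of -6.45 against Hp1α/β mutant ESCs (SE 0.698, adjusted p = 3.37e-07). From 1 and 280 counts, the ratio to set A was 0.00325, with an exact 95% interval from 8.19e-05 to 0.0182 for counting error. In Setdb1 mutant cells the log2 fold change was -3.95 (SE 0.57, adjusted p = 6.4e-06).

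In the single and double mutants of Hp1, Zbp1 was called lower in 3 of 6 comparisons. Hp1β mutant ESCs had 34, 47 and 45 counts and Hp1α/β mutant ESCs 28, 56 and 31, all below set A, with log2 fold changes of -1.12 (adjusted p = 0.00113) and -1.32 (adjusted p = 0.000277). Hp1α/γ mutant ESCs had 76, 47 and 54 counts against set B, a log2 fold change of -1.12 (adjusted p = 0.00427). Hp1α mutant ESCs with 108, 113 and 105 counts and Hp1γ mutant ESCs with 73, 102 and 65 counts overlapped with set A and were not called. In Hp1β/γ mutant ESCs the 100, 94 and 95 counts lay below set B, but the log2 fold change of -0.63 (adjusted p = 0.00146) stayed under the threshold. The call in Hp1β mutant ESCs was lost when set A replicate 3 was left out (log2 fold change -0.99, adjusted p = 0.00801), and that in Hp1α/γ mutant ESCs when set A served as the control (log2 fold change -0.61, adjusted p = 0.0683).

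Irf7 encodes a transcription factor that amplifies the induction of interferon genes and is itself interferon-stimulated. It had 45, 36 and 33 counts in Setdb1 mutant cells and 1, 2 and 3 in Setdb1 F/F ESCs. The Setdb1 mutant libraries lay above all others of the series. The log2 fold change was 3.999 (SE 0.434, adjusted p = 1.89e-07), and the ratio of the sums was 16.7 with an exact 95% interval of 7.43 to 46.4 for counting error. Phrf1, whose gene reaches an exon of Irf7 on the opposite strand, had 2701 to 3304 counts in Setdb1 F/F ESCs and 2682 to 2975 in Setdb1 mutant cells, a log2 fold change of -0.23 (adjusted p = 1.94e-06) in the direction opposite to Irf7. The triple mutant cells had 9, 16 and 19 counts against 6, 3 and 4 in set A, with no overlap. Irf7 did not pass the filter there. Without it, Irf7 was called with a log2 fold change of 1.59 (adjusted p = 0.0288), but against Hp1α/β mutant ESCs, with 6, 10 and 14 counts, the log2 fold change was 0.46 (adjusted p = 0.37). In Hp1β/γ mutant ESCs, 19, 13 and 12 counts stood against 3, 11 and 6 in set B, a log2 fold change of 0.99 (adjusted p = 0.0829). It was called without set B replicate 2 (log2 fold change 1.51, adjusted p = 0.0368) and against set A (log2 fold change 1.58, adjusted p = 0.00951).

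Of the effectors, Bst2 encodes tetherin, a membrane protein that holds budding virions at the cell surface. It had 1260, 1303 and 1216 counts in set A, 1555, 1585 and 1507 in set B and 710, 541 and 541 in Setdb1 F/F ESCs. The highest level was that of set B, with 72.2 ± 4.04 CPM (SD, n = 3), and the lowest that of Hp1β mutant ESCs, with 24.6 ± 1.12 CPM (SD, n = 3). Hp1β mutant ESCs had 478, 511 and 522 counts and triple mutant cells 608, 572 and 692, each below set A without overlap. Bst2 was down-regulated in both, with log2 fold changes of -1.29 (SE 0.057, adjusted p = 4.06e-08) and -1.11 (SE 0.0531, adjusted p = 2.7e-13). The genes of chromosome 8, on which Bst2 lies, had a median log2 fold change of 0.52 in the latter comparison against 0.04 over all genes, in the direction opposite to Bst2. In Hp1γ mutant and Hp1α/β mutant ESCs, all libraries also lay below set A, with log2 fold changes under the threshold of -0.67 (adjusted p = 2.86e-08) and -0.59 (adjusted p = 8.25e-08). Against Hp1α/β mutant ESCs, the log2 fold change of triple mutant cells was -0.54 (SE 0.0637, adjusted p = 1e-06), also under the threshold. Setdb1 mutant cells had 812, 897 and 920 counts and lay above Setdb1 F/F ESCs in every library in CPM, by a log2 fold change of 0.38 (SE 0.0574, adjusted p = 9.96e-06), under the threshold.

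Hp1α/γ mutant ESCs had 700, 1265 and 726 Bst2 counts, of which the second is the library that stood apart. With all 3 libraries, the log2 fold change against set B was -0.71 (adjusted p = 0.0561). Without replicate 2 it was -1.09 (adjusted p = 8.61e-09) and was called.

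Oasl2 encodes an interferon-induced protein related to the 2′-5′-oligoadenylate synthetases. It had 102, 132 and 123 counts in set A, 174, 207 and 170 in set B and 9, 6 and 5 in Setdb1 F/F ESCs. Among the Hp1 mutants its level ran from 0.738 ± 0.147 CPM (SD, n = 3) in Hp1α/γ mutant to 15.1 ± 1.18 CPM (SD, n = 3) in Hp1β/γ mutant ESCs. Hp1α/γ mutant ESCs had 12, 16 and 16 counts and triple mutant cells 17, 24 and 25. Both lay far below their wild-type set, and Oasl2 was down-regulated in them with log2 fold changes of -3.57 (SE 0.201, adjusted p = 5.69e-05) and -2.53 (SE 0.239, adjusted p = 1.05e-08). It was also down-regulated in Hp1β mutant ESCs (47, 53 and 47 counts, log2 fold change -1.24, adjusted p = 0.000199). Hp1α/β mutant ESCs, with 101, 128 and 121 counts, overlapped with set A (log2 fold change -0.05, adjusted p = 0.82), and the log2 fold change of triple mutant cells against them was -2.49 (SE 0.229, adjusted p = 4.75e-08).

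Setdb1 mutant cells had 16, 25 and 19 Oasl2 counts and lay above Setdb1 F/F ESCs without overlap, a log2 fold change of 1.40 (SE 0.37, adjusted p = 0.00235). The level reached, 0.961 ± 0.199 CPM (SD, n = 3), overlapped with that of triple mutant cells, 0.946 ± 0.207 CPM (SD, n = 3), although these values come from separately deposited tables. It lay below the means of set A and set B, 5.599 and 8.545 CPM. Hp1β/γ mutant ESCs had 338, 321 and 423 counts, more than all other libraries, with a log2 fold change of 0.82 against set B (adjusted p = 6.61e-06), under the threshold. Against set A it was 1.44 and was called.

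Isg15 encodes a ubiquitin-like protein that is conjugated to other proteins. It had 6, 8 and 3 counts in set A, 13, 4 and 6 in set B, and 32, 30 and 38 in Hp1β/γ mutant ESCs. The latter lay above all other libraries of the series, and Isg15 was up-regulated there with a log2 fold change of 1.95 (SE 0.383, adjusted p = 0.000581). No count was found in Setdb1 F/F ESCs or in triple mutant cells. Setdb1 mutant cells had 14, 15 and 8 counts, which is at least 10.8-fold higher than Setdb1 F/F ESCs when the latter are set to 3 counts over the group. By the same floor, triple mutant cells were at least 6.23-fold lower than set A and at least 12.3-fold lower than Hp1α/β mutant ESCs, which had 20, 5 and 9 counts. Isg15 did not pass the filter in these 3 comparisons. Without the filter, it was called in each (adjusted p = 7.24e-08, 0.00254 and 3.29e-06).

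Ifit1 encodes a protein that binds viral RNA lacking a host-type cap. Its highest counts were 18, 18 and 10 in Hp1α mutant ESCs and 13, 13 and 6 in set A. Hp1β mutant ESCs had 0, 3 and 3, Hp1γ mutant ESCs 0, 5 and 1, Hp1α/β mutant ESCs 4, 1 and 7, and triple mutant cells 6, 0 and 2. The sums of 6 to 12 counts in these 4 mutants stand against 32 in set A, and the ratio for the triple mutant was 0.227 with an exact 95% interval of 0.0905 to 0.504 for counting error. With the filter, the gene was tested only in Hp1α mutant ESCs (log2 fold change 0.48, adjusted p = 0.416). Without the filter, it was called lower in Hp1β, Hp1γ and triple mutant cells, with log2 fold changes from -2.41 to -2.09 and adjusted p from 0.0179 to 0.0258. Setdb1 F/F ESCs had no count and Setdb1 mutant cells 1, 0 and 3, and Hp1α/γ mutant and Hp1β/γ mutant ESCs overlapped with set B.

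Ifit3, whose product works in a complex with IFIT1, was hardly detected. It had no count in 22 of 33 libraries and at most 4.68, and it did not pass the filter in any comparison. Its near-identical copy Ifit3b had at most 2.32 counts in a library, and how reads were split between them is uncertain. Of the other relatives, Ifit2 had 69, 56 and 63 counts in set A and 8, 0 and 9 in triple mutant cells, and was down-regulated there (log2 fold change -3.55, SE 0.461, adjusted p = 9.08e-07). Oasl1, a relative of Oasl2, had 16, 6 and 22 counts in set A and 46, 74 and 95 in triple mutant cells, and was up-regulated (log2 fold change 2.17, SE 0.377, adjusted p = 3.22e-05), in the direction opposite to Oasl2. The sums of Ifit1bl1 and Ifit1bl2 were 13 and 24 counts in triple mutant cells against 2 and 7 in set A, with overlapping libraries. These ratios were 5.91 (exact 95% interval 1.34 to 53.95) and 3.12 (1.30 to 8.57) for counting error. After Setdb1 loss, Ifit2 had 1 count against 17 in Setdb1 F/F ESCs, a ratio of 0.0517 (0.00124 to 0.33).

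Usp18 encodes a protease that removes ISG15 from proteins and inhibits signalling at the interferon receptor. It had no count in Setdb1 F/F ESCs and 37, 53 and 34 in Setdb1 mutant cells, more than in all other libraries of the series. This is at least 36.3-fold higher when Setdb1 F/F ESCs are set to 3 counts over the group, and the gene was called (adjusted p = 6.38e-08). Gm44148, whose gene reaches an exon of Usp18, had no count in either group. Usp18 had 8, 5 and 6 counts in triple mutant cells against 0, 1 and 0 in set A, and the ratio of these sums was 17.3 with an exact 95% interval of 2.75 to 718 for counting error. Usp18 was tested in the triple mutant only without the filter, by which it was called (log2 fold change 3.70, adjusted p = 0.0149). Hp1α/β mutant ESCs had 8, 2 and 5 counts, which overlap with those of triple mutant cells. The genes of chromosome 6, on which Usp18 lies, had a median log2 fold change of 0.38 in the triple mutant against set A.

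**Figure D2:**
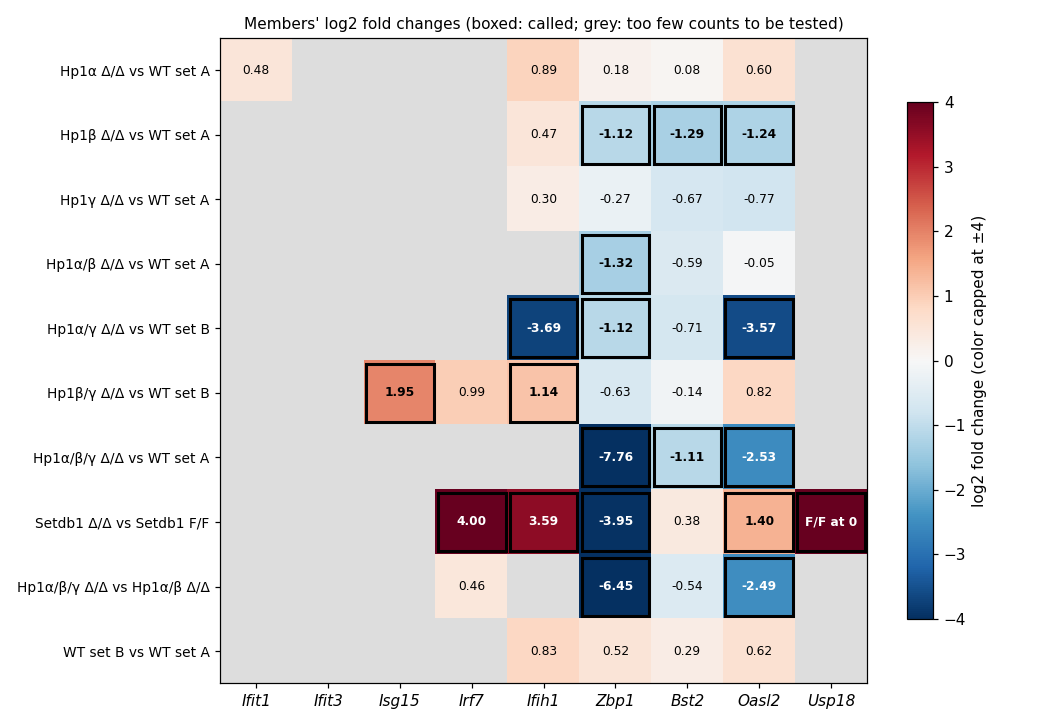
Log2 fold change of each member (columns) in each comparison (rows) from edgeR's fit, with color capped at 4 in either direction, where boxes mark calls, grey marks genes with too few counts to be tested, and Usp18 carries no value in Setdb1 mutant cells because Setdb1 F/F ESCs are at 0. All 3 boxes of triple mutant cells against set A are lower, whereas 4 of the 5 boxes of Setdb1 mutant cells are higher. Those 4 passed the filter only through the Setdb1 mutant libraries. Irf7 and Usp18, called higher in triple mutant cells without the filter, are grey there against set A.

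By condition, edgeR called 0 of 5 tested members in Hp1α mutant ESCs and DESeq2 0 of 9. By edgeR 1.56% of the 15841 genes tested were called higher and 3.31% lower. The only member at an unadjusted p under 0.05 there was Oasl2 (193, 218 and 146 counts, log2 fold change 0.60, adjusted p = 0.00287). In Hp1β mutant ESCs 3 of 4 tested members were called lower, against 6.36% of all genes lower and 2.75% higher. In Hp1γ mutant ESCs 0 of 4 tested members were called by edgeR, against 2.04% of all genes higher and 3.55% lower. At an unadjusted p under 0.05 there were 2 members, Bst2 and Oasl2, and DESeq2 called 1, Ifit1. Oasl2 had 71, 75 and 69 counts in these ESCs (log2 fold change -0.77, adjusted p = 0.00167). In Hp1α/β mutant ESCs 1 of 3 tested members was called lower, against 5.19% of all genes lower and 2.96% higher.

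In Hp1α/γ mutant ESCs 3 of 4 tested members were called lower, against 16.3% of all genes lower and 6.75% higher. Without replicate 2, the library that stood apart, these 3 were still called, with log2 fold changes of -3.19 for Ifih1, -1.01 for Zbp1 and -3.67 for Oasl2, and Bst2 was added. Ifih1 passed the filter only through set B, and it was not tested with 10 counts asked of every library or against set A. All 8 tested feeder fibroblast markers were also called lower there, and the sum of this list was 13.4 to 14.6 CPM against 54.2 to 61.9 CPM in set B, with Postn, Twist2 and Fap at 0. The part of the feeder cells in the lower Ifih1, Zbp1 and Oasl2 levels was not tested. Of the ESC markers, 3 of 8 were called higher there (Dppa5a, Nanog and Zfp42), and their sum was 5885 to 8572 CPM against 3556 to 3617 CPM in set B. Their part in the members' levels was not tested either. In Hp1β/γ mutant ESCs 2 of 6 tested members were called higher and none lower, against 7.32% of all genes higher and 4.54% lower. Isg15 passed the filter there only through the mutant libraries and was not tested with 10 counts asked of every library, whereas Ifih1 passed in both groups. No feeder marker was called there, and their sum was 42.6 to 43.4 CPM. Hp1α/γ mutant and Hp1β/γ mutant ESCs share set B as their control, and the difference between them was not tested.

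In triple mutant cells against set A, all 3 tested members were called lower, against 17.1% of all 17501 genes lower and 25.1% higher. Zbp1 passed the filter only through set A, and Oasl2 and Bst2 passed in both groups. The other 6 had too few counts, and when the filter was dropped 5 members were called lower and 2, Irf7 and Usp18, higher. Against Hp1α/β mutant ESCs 2 of 4 tested members were called lower, with 16.0% of all genes lower and 25.4% higher. Feeder markers moved too: against set A 4 of 8 were called lower and 1 higher, and their sum was 25.5 to 29.6 CPM against 36.1 to 40.1 CPM. Of macrophage and lymphocyte markers, Itgam and Cd3e were called higher. The macrophage list summed to 26.9 to 28.0 CPM against 20.5 to 22.1 CPM, and the lymphocyte list to 2.81 to 4.33 CPM against 2.67 to 3.38 CPM. The part of these cells in the members' levels was not tested.

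In Setdb1 mutant cells 4 of 6 tested members were called higher and 1 lower, against 18.5% of all 16457 genes higher and 11.4% lower. The 4 called higher, Irf7, Ifih1, Oasl2 and Usp18, passed the filter only through the Setdb1 mutant libraries, and Zbp1 only through those of Setdb1 F/F ESCs, so that their count is not support in itself. Bst2 alone passed in both groups. Feeder markers summed to 17.4 to 17.6 CPM against 20.8 to 21.6 CPM in Setdb1 F/F ESCs, with 2 of 4 tested markers called lower. Among macrophage markers, Tyrobp and C1qa had no count in either group, while Itgam was called higher, and the sum of the list was 16.6 to 18.6 CPM against 21.1 to 22.2 CPM. The part of feeder cells or macrophages in the members' levels was not tested. Between set B and set A, edgeR called 0 of 4 tested members and DESeq2 0 of 9. By edgeR 2.55% of all genes were called higher and 3.12% lower. At an unadjusted p under 0.05 there were 3: Zbp1, Bst2 and Oasl2 had log2 differences of 0.52, 0.29 and 0.62, with adjusted p of 0.0246, 0.00075 and 0.00423. These sets come from separate tables.

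The response of the triple mutant (against set A) was then compared with that to Setdb1 loss (against Setdb1 F/F ESCs) by an interaction term over 12 libraries. All 5 members called were lower in the triple mutant's response, against 16.5% of all genes lower and 15.4% higher. Ifih1 and Irf7 did not pass the filter in the triple mutant against set A. They and Oasl2 passed it after Setdb1 loss only through the mutant libraries, so this count is not support in itself. The differences in log2 fold change were -5.04 for Ifih1 (SE 1.13, adjusted p = 0.000451), -3.95 for Oasl2 (SE 0.431, adjusted p = 2.9e-08) and -1.52 for Bst2 (SE 0.0771, adjusted p = 4.34e-14). For Irf7 the difference was -2.40 (SE 0.79, adjusted p = 0.0108). That of Zbp1, -3.80 (SE 1.33, adjusted p = 0.0156), rests on few counts and was -2.28 (adjusted p = 0.357) without Setdb1 mutant replicate 2, the library with 4 of the 5 Zbp1 counts. For Usp18 the difference was -4.70 (SE 2.38, adjusted p = 0.0906).

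The members were set within lists of 155 genes of the pathway, 146 of them outside the members, and some genes stand in more than 1 list. Of 20 type I and III interferon genes, the ligands, 15 had no count in any of the 33 libraries, and the highest count of any was 2. The 3 counts that a 0 allows in a library leave levels up to the CPM limits above undetected. No ligand was tested in any comparison. The counts that follow stand against 25.1% of all genes tested called higher and 17.1% lower in the triple mutant, and 18.5% and 11.4% after Setdb1 loss, and these shares are given beside the lists as the background. The lists were chosen with earlier results of these data known, so an excess over these shares is not independent support.

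Among the 14 tested RNA sensors and adaptors, 4 were called higher and 3 lower in triple mutant cells against set A, or 28.6% and 21.4%, near the 25.1% and 17.1% of all genes. Ddx58, the gene of RIG-I, was up-regulated from 49.2 ± 3.12 to 119.1 ± 2.76 CPM (SD, n = 3; log2 fold change 1.31), whereas Dhx58, the gene of the regulator LGP2, and Trim25, a ubiquitin ligase that acts on RIG-I, were down-regulated (log2 fold changes -2.04 and -1.36). In Setdb1 mutant cells Ifih1 and Zc3hav1, the gene of the antiviral protein ZAP, were called higher, and Oas3 and Dhx58 lower, 14.3% each against 18.5% and 11.4%. Of the 9 tested DNA and Z-nucleic acid sensors and adaptors, 33.3% were called higher and 22.2% lower in the triple mutant. This is near the 25.1% and 17.1% of all genes. Higher were Mndal (log2 fold change 2.67), Mlkl (2.04), the executor of necroptosis, and Cgas (1.07). Zbp1 and Hmgb1 (-1.49) were lower. After Setdb1 loss, 3 of 8 (37.5%, against 11.4% of all genes) were called lower and none higher: Zbp1, Sting1 (log2 fold change -1.46) and Aim2 (-1.39).

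Of the kinases and regulatory factors, 5 of 13 tested genes (38.5%, against 25.1% of all genes) were called higher and none lower in the triple mutant, among them Ikbke (log2 fold change 2.64), Irf5 (2.28) and Irf8 (1.42). After Setdb1 loss Irf7 and Irf8 (2.08) were called higher, 15.4% against 18.5% of all genes, and none lower. Among receptor and STAT genes, 1 of 12 was called higher and 3 lower in the triple mutant, or 8.33% and 25% against 25.1% and 17.1%. Ifnar1, a subunit of the interferon receptor, was down-regulated in the triple mutant (log2 fold change -1.46) and up-regulated in Setdb1 mutant cells (1.21), a difference of -2.69 (adjusted p = 5.71e-20). Irf9 and Ifnar2 fell in the triple mutant too, with log2 fold changes of -1.69 and -1.27, and Jak2 was up-regulated (1.92).

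Among inhibitors, Tnfaip3, the gene of the ubiquitin-editing enzyme A20, had the largest rise in the triple mutant (log2 fold change 5.001, adjusted p = 3.79e-20) and also rose in Setdb1 mutant cells (1.74), and Socs3 fell in the former (-2.01). In all, 2 of 14 were called in each direction in the triple mutant and 3 in each direction, Usp18 included, in Setdb1 mutant cells. These are 14.3% in each direction against 25.1% higher and 17.1% lower, and 21.4% in each direction against 18.5% higher and 11.4% lower.

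The list of interferon-stimulated effectors has 55 genes, members among them. Bst2 and Oasl2 are among those called lower in the triple mutant, and Oasl2 among those called higher after Setdb1 loss. In triple mutant cells 21 of 39 tested were called lower and 6 higher (53.8% and 15.4%, against 17.1% and 25.1% of all genes), with a median log2 fold change of -1.11 against 0.04 over all genes. Ifitm1, an antiviral membrane protein that ESCs express, fell from 202.3 ± 5.53 to 10.1 ± 0.991 CPM (SD, n = 3; log2 fold change -4.29, adjusted p = 9.46e-22), and the guanylate-binding protein gene Gbp2 from 18.03 ± 0.223 to 0.579 ± 0.498 CPM (SD, n = 3; log2 fold change -4.84, adjusted p = 8.62e-13). Ddx60 (log2 fold change -5.50) and Gbp7 (-4.25) were the other largest falls. The largest rises were those of Slfn8 (4.57), Mx2 (3.62), Isg20 (3.12) and Trim30a (2.53). Of 33 tested in Setdb1 mutant cells, 11 were called higher and 6 lower (33.3% and 18.2%, against 18.5% and 11.4%), with a median of 0.22 against 0.01 over all genes. Rtp4 (log2 fold change 4.96), Oas1b (4.23) and Ifi27 (4.11) rose, while Xaf1 (-2.77) and Tor3a (-1.77) fell. Mx2 had no count in Setdb1 F/F ESCs and 0.708 ± 0.171 CPM (SD, n = 3) in Setdb1 mutant cells. Effectors were also called lower in other Hp1 mutants. The shares were 33.3% in Hp1β mutant ESCs (6.36% of all genes), 17.1% in Hp1γ (3.55%) and 16.7% in Hp1α/β (5.19%). They were 44.4% in Hp1α/γ (16.3%), 12.5% in Hp1β/γ (4.54%) and 2.7% in Hp1α mutant ESCs (3.31%). In the same order, 2.78%, 11.4%, 8.33%, 19.4%, 15% and 5.41% were called higher, against 2.75%, 2.04%, 2.96%, 6.75%, 7.32% and 1.56%.

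For antigen presentation by MHC class I, which interferons also raise, 6 of 13 tested genes (46.2%, against 17.1% of all genes) were called lower and none higher in the triple mutant. Psmb8, a subunit of the immunoproteasome (log2 fold change -5.72), and the proteasome activator genes Psme2 (-2.56) and Psme1 (-1.90) were among them. After Setdb1 loss 4 of 12 (33.3%, against 18.5%) were called higher, namely H2-D1 (log2 fold change 1.94), H2-T23 (1.61), H2-K1 (1.17) and Tap1 (1.13), and 3 (25%, against 11.4%) lower, Psmb10 (-1.25), Psme2 (-1.11) and Psme1 (-1.05). In Hp1α/γ mutant ESCs 46.2% of the list was also called lower, against 16.3% of all genes. The share was 7.69% in Hp1β mutant ESCs, against 6.36%. None was called lower in the other single and double mutants, and none higher in any of them.

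**Figure D3:**
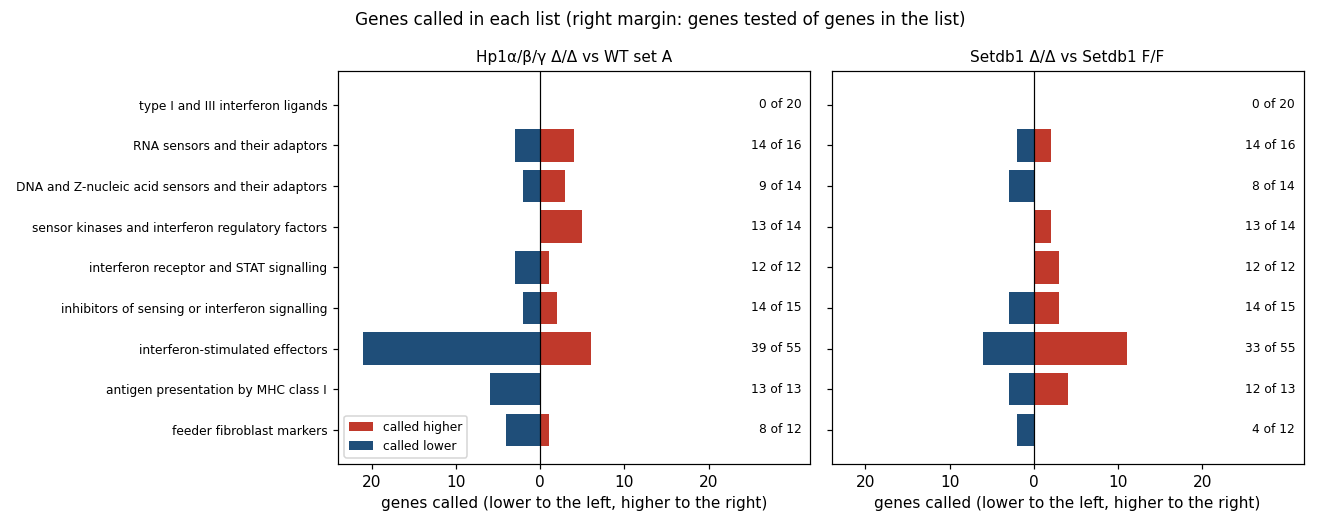
Number of genes called lower (to the left) and higher (to the right) in each pathway list and among feeder markers, in triple mutant cells against set A and in Setdb1 mutant cells against Setdb1 F/F ESCs, where the right margin gives genes tested of genes listed. For the effectors, 21 lower and 6 higher stand against 6 lower and 11 higher. The lists include members and were chosen with earlier results of these data known.

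Of the pathway genes, 97 were tested in both comparisons, which share no libraries. Called genes comprised 5 that were higher in both, 8 lower in both, 6 lower in the triple mutant and higher in Setdb1 mutant cells, and none with the reverse pattern. These are 5.15%, 8.25%, 6.19% and 0% of the 97, against 9.5%, 5.11%, 1.24% and 0.84% of the 15468 genes tested in both. The 6 were Oasl2, Ifnar1, Oas1b, Parp12, Trim21 and H2-T23, and each differed by the interaction term at an adjusted p of at most 8.49e-07. Since opposite calls in the same libraries picked them, this difference is not separate support. Those lower in both were Zbp1, Dhx58, Ifitm1, Xaf1, Slfn5, Tor3a, Psme1 and Psme2. The 5 higher in both were Irf8, Tnfaip3, Isg20, Mx2 and Trim30a. Outside the members, the interaction term called 34 of 110 pathway genes lower in the triple mutant's response and 18 higher (30.9% and 16.4%, against 16.5% and 15.4% of all genes), with a median difference of -0.45 against -0.02 over all genes.

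**Figure D4:**
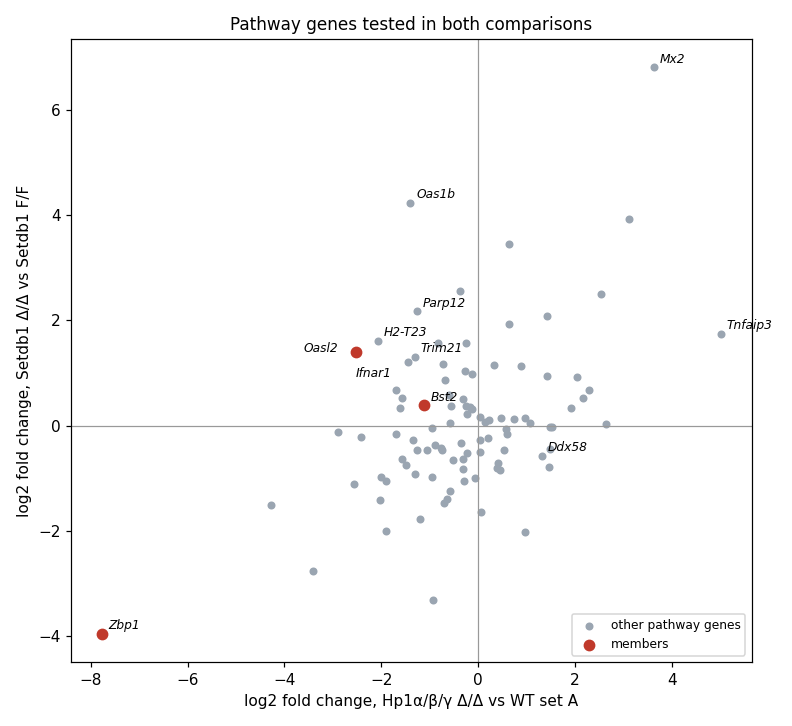
Log2 fold change of the 97 pathway genes tested in both comparisons, in triple mutant cells against set A (horizontal axis) and in Setdb1 mutant cells against Setdb1 F/F ESCs (vertical axis), with members in red. Zbp1 lies at -7.76 and -3.95, low in both, and Oasl2 at -2.53 and 1.40, in the quadrant of the 6 genes with opposite calls.

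Among the pathway genes outside the members, there were 2 higher and 2 lower of 102 in Hp1α mutant ESCs, 1.96% each against 1.56% and 3.31% of all genes. In Hp1β mutant ESCs 1 of 101 was higher and 11 lower, or 0.99% and 10.9% against 2.75% and 6.36%. In Hp1γ mutant ESCs 5 of 101 were higher and 8 lower, or 4.95% and 7.92% against 2.04% and 3.55%. In Hp1α/β mutant ESCs 4 of 103 were higher and 7 lower, or 3.88% and 6.8% against 2.96% and 5.19%. Both double mutants that follow were compared with set B. In Hp1α/γ mutant ESCs 11 of 103 were higher and 30 lower, or 10.7% and 29.1% against 6.75% and 16.3%, and in Hp1β/γ mutant ESCs 7 of 106, 6.6%, were called in each direction against 7.32% and 4.54%. In triple mutant cells 20 of 107 were called higher and 32 lower, or 18.7% and 29.9% against 25.1% and 17.1%. In Setdb1 mutant cells 21 of 96 were higher and 14 lower, or 21.9% and 14.6% against 18.5% and 11.4%.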

How the data were processed

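RNA-seq of 33 ESC libraries was read from 8 tables. The expected counts per gene, and the TPM beside them, are values the authors deposited, with RSEM the only estimator named. Per the submitters' processing notes, the authors aligned reads with TopHat2 2.1.1 to GRCm38.p5 before these expected counts were made, and their paper names DESeq2 for the comparisons. The deposited tables also hold the authors' own fold changes on a log2 scale and p-values, which were not used. Replicates are described as biological, and the sources used here do not state whether counting used strand.

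Expected counts were rounded to whole numbers, filtered with filterByExpr (minimum count 10), scaled by TMM and tested with edgeR 4.0.16 (quasi-likelihood, R 4.3.3) on the libraries of each comparison, with Benjamini-Hochberg adjustment over all genes tested. A call required adjusted p below 0.05 together with a log2 fold change beyond 1 in either direction. CPM were scaled by TMM over all 33 libraries. Count ratios carry exact 95% intervals scaled by library size, and these and the floor of 3 counts cover counting error only. Promoter sequences are from RefSeq (GRCm38.p6), and positions from GENCODE M21. Pattern likeness is Pearson's r of log2(mean CPM + 0.5).

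The members and lists were chosen with earlier results of these data known, and some lists came from that earlier work. Named genes are the members, their close copies, and up to 4 called genes per list and direction. The latter had the largest log2 fold change in the triple mutant (both comparisons) or the Setdb1 mutant. The 3 genes of the most similar pattern per member were also looked up and are not named here. Other genes called in both responses, and single markers, were named after their values were seen. Alternatives were RLE size factors, DESeq2 1.42.0, no filter, a stricter filter, a joint fit, the other wild-type set, the replicate number as a block and each library left out. On simulated data, the fit recovered 100% of 200 genes changed 4-fold both for the triple mutant (15779 genes) and for Setdb1 (15141 genes). The changed genes were drawn only from well-counted genes, with the same small spread for every gene. This recovery therefore does not cover members with few counts.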

Additional observations from a re-analysis of the deposited data

Results flagged for a closer look

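For 5 members, the response of the triple mutant (against set A) and that to Setdb1 loss (against Setdb1 F/F ESCs) differed by the interaction term of edgeR's quasi-likelihood fit. The log2 difference, triple mutant minus Setdb1, was -5.04 for Ifih1, -3.95 for Oasl2, -3.80 for Zbp1, -2.40 for Irf7 and -1.52 for Bst2. For Zbp1 both responses were called lower, and the difference was no longer called without Setdb1 mutant replicate 2 (log2 difference -2.28, adjusted p = 0.357, edgeR), and for Oasl2 they had opposite calls. Ifih1 and Irf7 were not tested in the triple mutant's own comparison with set A. With Oasl2, they passed the filter after Setdb1 loss only through the mutant libraries. The groups of each response come from separate tables, so that the parent lines and the tables cannot be told apart.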

How the results depend on the processing

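Among counts of called members, 123 alternatives stayed within 1.5 times the main count and 19 did not, and no direction reversed. Against the other wild-type set, calls numbered 1 in Hp1α, 1 in Hp1γ, 1 in Hp1α/γ and 4 in Hp1β/γ mutant ESCs (main counts 0, 0, 3 and 2). In Hp1γ mutant ESCs DESeq2, no filter and the joint fit each called 1. In the triple mutant against set A (main count 3), DESeq2 and no filter called 7 and the joint fit 6. These alternatives test more of the low members. At least 10 counts in every library left 1 call in Hp1β/γ mutant ESCs, 0 of 1 tested in the Setdb1 mutant, 1 in the triple mutant against Hp1α/β mutant ESCs and 1 in the interaction, since fewer members were tested. With each library left out in turn, calls ranged from 0 to 0 in Hp1α, 3 to 4 in Hp1β, 0 to 1 in Hp1γ, 1 to 1 in Hp1α/β, 3 to 4 in Hp1α/γ and 1 to 3 in Hp1β/γ mutant ESCs. They ranged from 3 to 5 in the triple mutant, 5 to 6 in the Setdb1 mutant, 2 to 2 against Hp1α/β mutant ESCs, 0 to 0 between the wild-type sets and 5 to 7 in the interaction. The 5 calls in the triple mutant, which added Ifit1 and Irf7, came without triple mutant replicate 1 or set A replicate 3. Without Hp1γ mutant replicate 2 or set A replicate 3, Ifit1 was the 1 call in Hp1γ mutant ESCs. The 1 call left in Hp1β/γ mutant ESCs came without replicate 3 of the mutant, where Ifih1 had a log2 fold change of 0.94 (edgeR, adjusted p = 0.0346). The cause of the other shifts was not tested. Same-numbered samples did not deviate together (correlations from -0.085 to 0.13), so the numbers do not pair them, and the replicate block left every count as it was (0, 3, 0, 1, 3, 2, 3, 5, 2, 0 and 5). Single members were compared where both the main and the alternative fit tested them. Of these values, 359 kept their call status, 6 gained a call and 4 lost it. Members tested only in the main or only in the alternative fit are not in these numbers. Further calls appeared or were lost among them.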
